A study of Mus musculus with 12 samples.

Results

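The erythroid transcripts described here are 5 messenger RNAs that developing red cells make in bulk: the adult alpha-globin genes Hba-a1 and Hba-a2, the adult beta-globin genes Hbb-bs and Hbb-bt, and Alas2, the erythroid form of 5-aminolevulinate synthase. They were chosen by name, and all 5 had a row in the table of 22053 rows. They were measured by poly(A) RNA sequencing of whole kidney from 12 mice in 3 groups of 4. Control mice ate a diet without adenine and received weekly intraperitoneal saline (PBS). CKD mice ate 0.2% adenine, which injures the tubules and causes chronic kidney disease (CKD), for 8 weeks from 8 to 16 weeks of age, with the same injections. CKD+Fe mice ate the same adenine diet and received iron dextran, 0.5 g/kg, by weekly intraperitoneal injection. The animals were C57BL/6 mice euthanized with pentobarbital, and blood was taken from the inferior vena cava at that time. Perfusion of the kidneys is not described in the sources used here, nor is the sex of the 12 mice. Each mouse is named by the number in its label.

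Hemoglobin carries oxygen as a tetramer of alpha and beta chains, each holding a heme. Alas2 catalyzes the first step of heme synthesis in erythroid cells, where iron availability controls its translation. Circulating reticulocytes retain globin mRNA after losing their nucleus, so RNA from tissue that holds blood contains it. In mice the red cells are made in bone marrow and spleen, while the healthy adult kidney supplies erythropoietin and is not a site of erythropoiesis.

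The globin genes come as near-identical copies, which limits how reads can be assigned between them. Positions are from GRCm38, GENCODE M21 annotation, counted from 1. Hba-a1 lies on the plus strand of chromosome 11 from 32283511 to 32284465, and Hba-a2 on the same strand from 32296489 to 32297298. Hbb-bs lies on the minus strand of chromosome 7 from 103826534 to 103828096, and Hbb-bt on the same strand from 103812524 to 103813996. Each of the 4 globin genes has 3 exons. Alas2 lies on the plus strand of chromosome X from 150547375 to 150570638 and has 11 exons. The alpha pair differed at 1 of 426 coding bases, C381T, and the beta pair differed at 1 of 441 coding bases, C417T. Positions are counted from 1 at the A of the start codon, the stop codon is left out, and the first gene of each pair is the reference. The 70 coding bases around each difference are shown because they are what separates the copies within the coding sequence, with the differing base in capitals (bases 346 to 415 of Hba and 372 to 441 of Hbb, from the GENCODE transcripts).

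Hba-a1: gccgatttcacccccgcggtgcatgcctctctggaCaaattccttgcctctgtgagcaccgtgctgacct
Hba-a2: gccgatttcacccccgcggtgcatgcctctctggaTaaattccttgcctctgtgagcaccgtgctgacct
Hbb-bs: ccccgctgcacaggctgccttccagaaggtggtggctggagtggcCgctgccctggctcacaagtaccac
Hbb-bt: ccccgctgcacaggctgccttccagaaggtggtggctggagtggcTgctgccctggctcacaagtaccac

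Reads were 50 bases long. Of all 50-base windows of the transcript, those found in no other annotated gene made up 32.5% for Hba-a1, 13.1% for Hba-a2, 34.2% for Hbb-bs and 41.7% for Hbb-bt. Only annotated transcripts were searched. The Hba-a1 transcript starts 161 bases before its RefSeq start, in sequence identical to that before Hba-a2. Windows there counted as its own, so 32.5% is an upper limit. The globin values of single copies therefore rest on few distinguishing reads, and how a copy's share was set is uncertain. All 50-base windows of Alas2 were its own, so Alas2 was free of this limit.

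The start regions of the genes share short promoter letters that many other genes also have. Over windows of the 250 bases before the RefSeq start, 4 motifs were searched on both strands. These were the TATA box, written TATAA (present in 22.8% of 32851 mouse promoter windows), the CCAAT box (in 33.8%), the CACCC box (in 52.0%) and the GATA motif, written GATAA (in 22.6%). All 4 globin windows held each of them. With the 50 bases after the start included, Hba-a1 and Hba-a2 were identical over 297 aligned bases. The Alas2 window held the letters of all but the CCAAT box. Its TATAA matches lay at −207 and, on the other strand, −208, while each globin window had a match at −27 to −30. The 100 bases just before the annotated start are shown for a globin gene and for Alas2, with motif matches in capitals, on the gene's own strand, GRCm38.p6. They are chr11:32296389-32296488 for Hba-a2 and chrX:150547275-150547374 for Alas2, where the capitals are a GATA motif on the other strand. A match describes letters and not a bound site.

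Hba-a2: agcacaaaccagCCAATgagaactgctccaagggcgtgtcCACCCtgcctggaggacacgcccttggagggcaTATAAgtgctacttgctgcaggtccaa
Alas2: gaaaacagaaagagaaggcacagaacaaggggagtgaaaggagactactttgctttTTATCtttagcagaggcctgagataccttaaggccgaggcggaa

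Levels are in FPKM, fragments scaled to transcript length and to library size, as the authors computed them. Differences between groups are log2 fold changes of FPKM + 1 with the limma standard error (SE), fitted to all 12 mice and adjusted (Benjamini-Hochberg) over 13148 genes at 1 FPKM or more in at least 4 mice. Alas2 reached 1 FPKM in 3 mice and did not pass, so 4 of the 5 members entered the fit. Totals ran from 503000 to 708000 FPKM, and the smallest steps between low values put the depth at 18000000 to 28900000 fragments. At that depth Hbb-bs rested on about 37 to 1020 reads per mouse, Hba-a1 on 17 to 441, Hba-a2 on 2 to 192, Alas2 on 4 to 87, and Hbb-bt on 0 to 96. In each group 1 mouse stood apart in its whole transcriptome: control 042301, CKD 110310 and CKD+Fe 042702 had 442 to 806 genes at least 2-fold from the rest of their group, against 42 to 225 in the other 9 mice. Those 3 mice also had the highest summed globin of their groups, so the group differences and correlations are also given without them.

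Erythroid transcripts were present in every kidney, at levels that differed far more between mice of a group than between groups. Hbb-bs was the most abundant member in each mouse. In control mice it measured 33.3 FPKM in 012811, 25.7 in 012822, 52.9 in 042301 and 7.33 in 042310, a mean of 29.8 ± 18.9 (SD, n = 4). In CKD mice it measured 3.62 FPKM in 021320, 73.9 in 022301, 71.9 in 110310 and 6.44 in 120102, a mean of 39.0 ± 39.2. In CKD+Fe mice it measured 26.2 FPKM in 042702, 9.75 in 062910, 5.25 in 111710 and 3.01 in 122320, a mean of 11.0 ± 10.5. The CKD group held both the highest values of the series and values near the lowest, and the ranges of the 3 groups overlapped. From the lowest to the highest mouse Hbb-bs spanned 24.6-fold. Its within-group standard deviation was 1.56 on the log2(FPKM + 1) scale, where the median over all tested genes was 0.26 and only 2 tested genes had a larger one.

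Hba-a1 encodes an alpha chain and followed the same mice. It measured 9.65, 7.40, 26.9 and 2.75 FPKM in control mice 012811, 012822, 042301 and 042310, a mean of 11.7 ± 10.6. In CKD mice 021320, 022301, 110310 and 120102 it measured 1.66, 16.9, 23.7 and 1.09 FPKM, a mean of 10.8 ± 11.3. In CKD+Fe mice 042702, 062910, 111710 and 122320 it measured 12.4, 2.84, 1.79 and 1.54 FPKM, a mean of 4.63 ± 5.18. Mouse 042702 stood above the other 3 CKD+Fe mice, which lay near the 2 low CKD mice and the lowest control mouse, and all 3 groups overlapped.

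Hba-a2, the second alpha gene, was lower than Hba-a1 in each mouse. In the same order of mice it measured 4.83, 3.46, 14.8 and 1.31 FPKM in control mice, 0.310, 8.66, 11.5 and 0.548 in CKD mice, and 3.12, 1.36, 0.536 and 0.213 in CKD+Fe mice. The means were 6.09 ± 5.97, 5.26 ± 5.70 and 1.31 ± 1.30. Control mouse 042310 lay below the 2 highest CKD+Fe mice, so these groups overlapped too. Hba-a2 had the widest span of the members without a zero, 69.4-fold.

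Hbb-bt, the minor beta gene in these kidneys, was the member whose control and CKD+Fe values did not overlap. It measured 3.89, 2.04, 5.61 and 0.912 FPKM in control mice and 0, 6.24, 5.67 and 0.564 in CKD mice. In CKD+Fe mice it measured 0.861, 0.361, 0.599 and 0.0799 FPKM. The margin between the highest CKD+Fe mouse and the lowest control mouse was narrow, and the CKD group spanned both. The means were 3.11 ± 2.07, 3.12 ± 3.29 and 0.475 ± 0.333.

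Alas2 had the lowest mean of the members in each group, although Hbb-bt was lower in CKD mouse 021320 and CKD+Fe mouse 122320. It stood at 1.40% to 4.71% of Hbb-bs, with a median of 2.73%. It measured 0.706, 0.717, 1.83 and 0.195 FPKM in control mice, 0.136, 1.03, 1.08 and 0.216 in CKD mice, and 0.693, 0.253, 0.247 and 0.102 in CKD+Fe mice. Control mouse 042301, CKD mice 022301 and 110310 and CKD+Fe mouse 042702 were high for Alas2 as for the globins, and no pair of groups was separate. The means were 0.862 ± 0.689, 0.616 ± 0.509 and 0.324 ± 0.256.

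**Figure D1:**
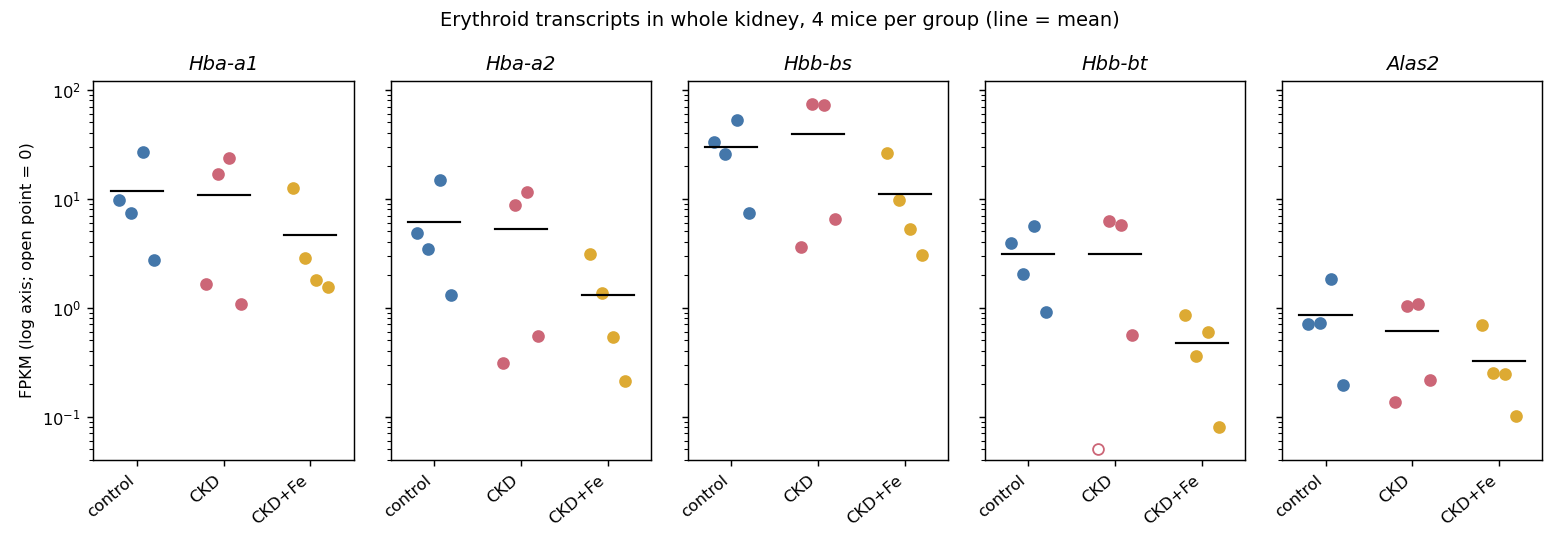
FPKM of the 5 members in each mouse (points, log axis) by group, with a line at the mean of the 4 mice and an open point for the value of 0. Within each group the mice spread over much of the range of the series, and only Hbb-bt has a control group (0.912 or more) above the CKD+Fe group (0.861 or less).

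Adenine alone did not move any member past the test. CKD against control gave log2 fold changes of −0.48 (SE 0.82) for Hba-a1, −0.49 (SE 0.74) for Hba-a2, −0.28 (SE 0.90) for Hbb-bs and −0.33 (SE 0.57) for Hbb-bt. Adjusted p from limma ran from 0.572 to 0.789, and 0 of the 4 tested members were called where 67.9% of all tested genes were. At an unadjusted p under 0.05 the count was also 0. The 95% interval for Hbb-bs, −2.22 to 1.65, held falls and rises of more than 2-fold. Its mean was 1.31 times higher in CKD, the opposite sign to its log2 difference, because the 2 high CKD mice dominate a linear mean. For Alas2 the difference was −0.19 (SE 0.27 in the fit without the filter), and the exact permutation test on its 8 values, two-sided, gave p = 0.629. These signs were not stable. Leaving out control mouse 042301 turned Hba-a1 (0.02), Hba-a2 (0.02), Hbb-bs (0.08) and Alas2 (0.03), leaving out CKD mouse 021320 turned Hba-a2 (0.05), Hbb-bs (0.44) and Hbb-bt (0.19), and leaving out CKD mouse 120102 turned Hba-a1 (0.10) and Hbb-bs (0.21). Without the 3 mice that stood apart the differences were −0.59 for Hba-a1, −0.54 for Hba-a2, −0.52 for Hbb-bs and −0.11 for Alas2, and none passed.

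Iron dextran against CKD alone gave lower mean log2 values for all 5 members, with none past the test. The log2 fold changes were −0.69 (SE 0.82) for Hba-a1, −0.94 (SE 0.74) for Hba-a2, −1.17 (SE 0.90) for Hbb-bs and −1.03 (SE 0.57) for Hbb-bt, with limma adjusted p from 0.899 to 0.982. Here 0 of 4 members were called, at an unadjusted p under 0.05 too, and 0.00761% of all tested genes, a single gene, was called. For Alas2 the difference was −0.25 (SE 0.27), exact permutation p = 0.314. The intervals again spanned 0, from −3.11 to 0.76 for Hbb-bs and from −2.25 to 0.20 for Hbb-bt. Single mice moved the sizes and not the signs. Over the fits that left out 1 mouse, Hba-a1 ran from −1.27 (without CKD mouse 120102) to −0.09 (without 110310), Hba-a2 from −1.47 (without 021320) to −0.38 (without 110310), Hbb-bs from −1.89 (without 021320) to −0.55 (without 022301), Hbb-bt from −1.55 (without 021320) to −0.60 (without 022301) and Alas2 from −0.40 (without 021320) to −0.11 (without 110310). Leaving out CKD+Fe mouse 042702 gave −1.23 for Hba-a1. Without the 3 mice that stood apart the differences were −0.62 for Hba-a1, −0.72 for Hba-a2, −1.09 for Hbb-bs and −0.24 for Alas2.

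CKD+Fe against control gave the largest differences of the 3 comparisons, and the only member called lower was Hbb-bt. Its log2 fold change was −1.36 (SE 0.57, 95% interval −2.58 to −0.13), with limma adjusted p = 0.0496. All 4 CKD+Fe mice lay below all 4 control mice, and the exact permutation test gave p = 0.0286, the smallest that 70 arrangements can give. Thus 1 of 4 members was called, against 65.4% of all tested genes in either direction and 11.0% lower in CKD+Fe. Over the same genes 60.2% had groups that did not overlap. The other tested members gave −1.17 (SE 0.82) for Hba-a1, −1.43 (SE 0.74) for Hba-a2 and −1.45 (SE 0.90) for Hbb-bs, with limma adjusted p of 0.221, 0.104 and 0.169. For Alas2 the difference was −0.44 (SE 0.27), exact permutation p = 0.229. The median of the 4 tested members was −1.39, where the median over all tested genes was 0.50. CKD and CKD+Fe were each compared with the same control mice.

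The Hbb-bt call was at the edge of the threshold. It was lost, with limma adjusted p of 0.0597 to 0.133, when any of control mice 012811, 012822 or 042301, or any of the 4 CKD+Fe mice, was left out. It was also lost when the beta copies were summed (log2 fold change −1.53, adjusted p = 0.152). In CKD+Fe mice Hbb-bt rested on about 1 to 14 reads. It reached 1 FPKM in 5 mice, all of them control or CKD mice, so it entered the fit only through those groups. With no filter on low values, its limma adjusted p was 0.0856. Without the 3 mice that stood apart Hbb-bt did not pass the filter, and the other globins gave −1.21 for Hba-a1, −1.26 for Hba-a2 and −1.61 for Hbb-bs in CKD+Fe against control, with limma adjusted p of 0.106 to 0.133.

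**Figure D2:**
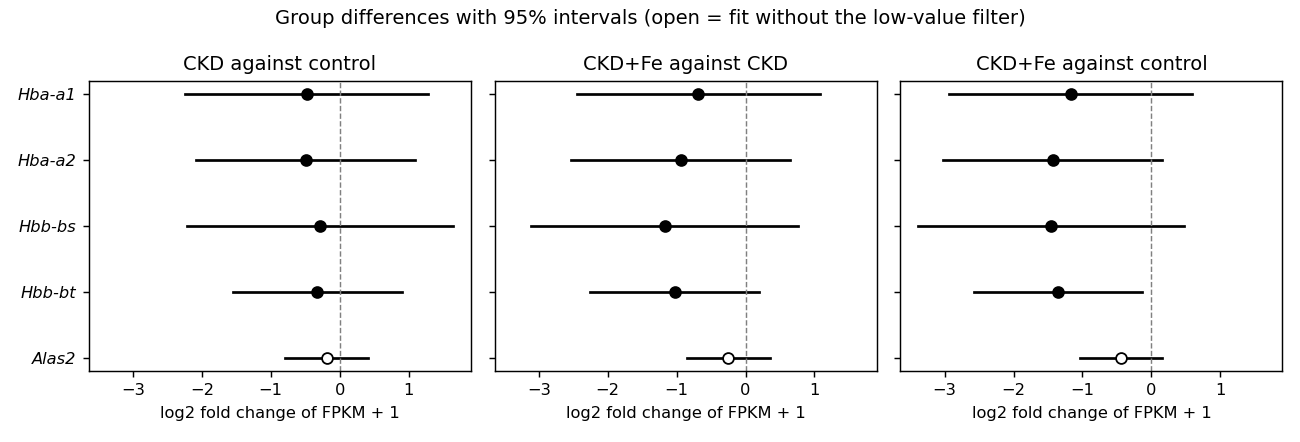
Log2 fold change of FPKM + 1 (x axis) of each member in the 3 comparisons, with 95% intervals from limma and open points for Alas2, fitted without the low-value filter. Each interval crosses 0 except that of Hbb-bt for CKD+Fe against control (−2.58 to −0.13).

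The members rose and fell together from mouse to mouse. Over 12 mice, Hba-a1 and Hbb-bs correlated with Pearson r = 0.962 and Spearman rho = 0.923 on log2(FPKM + 1), with permutation p of 1e-05, the smallest that 100000 permutations can give, and 8e-05 (adjusted over the 3 pairs computed, 3e-05 and 8e-05). Hba-a1 and Alas2 correlated with r = 0.957 and rho = 0.916, permutation p = 2e-05 and 8e-05 (adjusted 3e-05 and 8e-05). Hbb-bs and Alas2 correlated with r = 0.927 and rho = 0.923, permutation p = 5e-05 and 7e-05 (adjusted 5e-05 and 8e-05). The 2 chains of hemoglobin and the enzyme of its heme thus tracked each other, although Alas2 shares no 50-base window with any globin. After each group's mean was taken away, r was 0.962, 0.953 and 0.918 for the same pairs, with permutation p of 0.00084, 0.00112 and 0.00032 (adjusted 0.00112, 0.00112 and 0.00096), and rho was 0.937, 0.916 and 0.923. Without the 2 mice farthest from the median, r over 12 mice became 0.957, 0.960 and 0.927, and r on deviations from group means 0.947, 0.953 and 0.884. Over the 9 mice left without those that stood apart, r was 0.969, 0.963 and 0.982.

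The mice lay on both sides of a gap. Of the 12 mice, 6 had Hbb-bs from 3.01 to 9.75 FPKM and 6 from 25.7 to 73.9, with a gap of 2.64-fold between them and spans of 3.24-fold and 2.87-fold inside. The low set held 1 control, 2 CKD and 3 CKD+Fe mice. The gap was seen in the values and is described without a test.

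**Figure D3:**
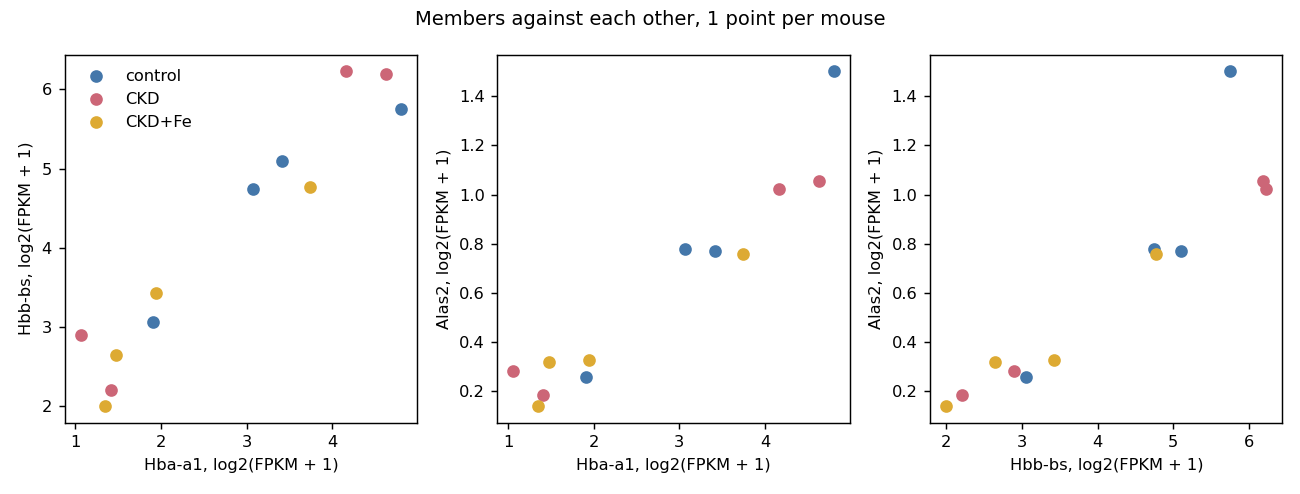
Hba-a1, Hbb-bs and Alas2 plotted against each other, 1 point per mouse colored by group, both axes log2(FPKM + 1). Mice of all 3 groups lie along the same rising band (r = 0.962, 0.957 and 0.927), with a gap between the 6 low and the 6 high mice.

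The balance between chains varied less than the level. The ratio of summed beta to summed alpha FPKM had a median of 2.31 and ran from 1.40 in control mouse 042301 to 4.27 in CKD mouse 120102, while the summed globin itself ran from 4.84 to 113 FPKM, a span of 23.3-fold. The ratio of Hba-a1 to Hba-a2 was close to its median of 2.09 in 8 mice (1.82 to 2.14), and was 5.35 in CKD mouse 021320 and 3.96, 3.34 and 7.23 in CKD+Fe mice 042702, 111710 and 122320. In those 4 mice Hba-a2 rested on about 4, 39, 7 and 2 reads. The ratio of Hbb-bs to Hbb-bt was 8.04 to 12.6 in control mice and 11.4 to 12.7 in the 3 CKD mice where Hbb-bt was above 0. In CKD+Fe mice it was 30.4, 27.0, 8.76 and 37.7, where Hbb-bt rested on about 14, 5, 10 and 1 reads. The 3 highest CKD+Fe mice thus stood apart in the beta copy ratio, also 042702, whose Hbb-bs of 26.2 FPKM was like that of control mouse 012822 (25.7) while its Hbb-bt was 0.861 against 2.04. These ratios compare copies that share 58.3% to 86.9% of their 50-base windows, and the part of read assignment in them was not tested.

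**Figure D4:**
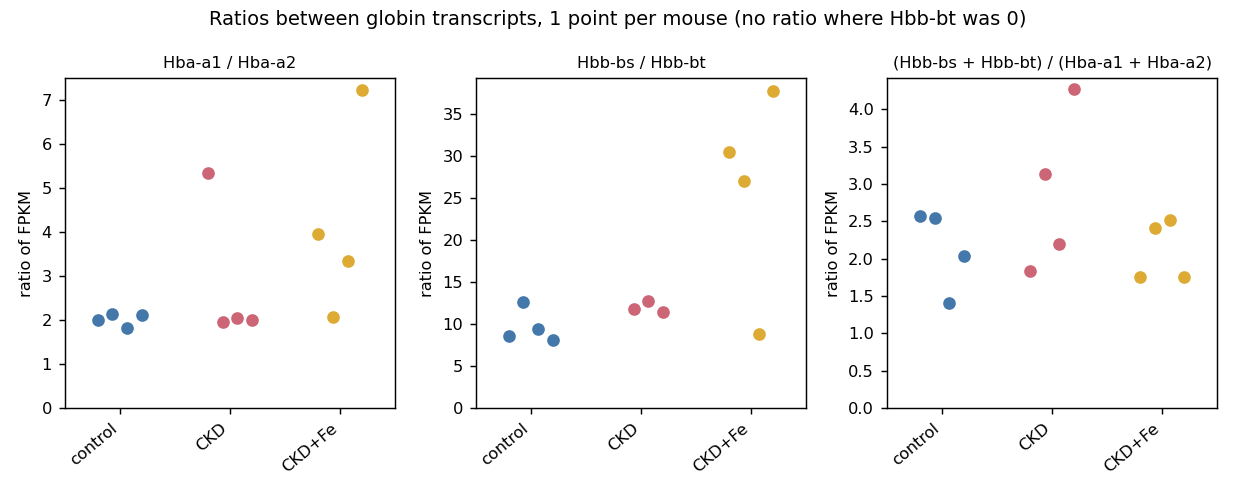
Ratios of FPKM between the alpha copies, between the beta copies and between summed beta and summed alpha globin, 1 point per mouse by group. The alpha copy ratio is 1.82 to 2.14 in 8 mice. The beta copy ratio is 27.0 or more in 3 of the 4 CKD+Fe mice, on about 1 to 14 reads of Hbb-bt.

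Several genes that mark developing red cells were near 0 in the same kidneys, while others that kidney cells also express were not. Of 48 genes on 5 erythroid lists (other globins and the globin chaperone, red cell membrane, late erythroid genes, transcription factors, receptors), 46 were matched, 19 passed the filter, and 18 never exceeded 0.25 FPKM. The embryonic and minor globins Hba-x, Hbq1b, Hbb-y, Hbb-bh1 and Hbb-bh2 were listed at 0 in all 12 mice. So were Car1, the red cell carbonic anhydrase, Rhag, the Rh-associated glycoprotein, and Cldn13. Gata1, the master factor of erythroid nuclei, was at 0 in 9 mice and reached 0.049 FPKM. Hemgn reached 0.0182 FPKM and Trim58 0.0249. Klf1, the factor that drives adult beta-globin, was measured in each mouse at 0.275 to 1.03 FPKM, and its lowest value was in control mouse 042301, which had the highest globin of its group. In bulk tissue fewer cells of a type and less RNA per cell cannot be told apart.

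The membrane, late erythroid and receptor genes that passed the filter are not confined to red cells, and they moved in both directions. For the red cell membrane, 1 of 6 tested genes was higher and 1 lower in CKD against control, with a median log2 fold change of 0.21. Under median-of-ratios rescaling only 4 of these genes were tested, and their median was −0.36. The gene that fell was Slc4a1, the band 3 anion exchanger that acid-secreting intercalated cells use as well, with means of 15.2 FPKM in control mice, 6.33 with adenine and 15.6 with adenine and iron (CKD against control −1.21, SE 0.34, limma adjusted p = 0.00579, and CKD+Fe against CKD 1.15, adjusted p = 0.462). The gene that rose was Epb42 (0.86, adjusted p = 0.00379), whose call was lost under quantile normalization (0.11), and whose rise in CKD+Fe against control (0.74) turned there. Of 7 late erythroid genes, 1 was higher and 2 were lower in CKD, with log2 fold changes of 1.59 for Isg20 and −0.99 for Fbxo7. Under median-of-ratios rescaling 1 was higher and 5 lower, and the median went from 0.09 to −0.51. Of 4 receptors, Tfr2 (1.12) and Kit (0.78) rose in CKD, but Kit was not called under median-of-ratios rescaling (0.25, limma adjusted p = 0.206) or quantile normalization (0.05, adjusted p = 0.801). The receptor median was 0.31 over the 4 genes and −0.32 over the same 4 under quantile normalization. Under rescaling Tfr2 was not tested, and the median of the other 3 was −0.62. Tfrc, the transferrin receptor, fell in CKD+Fe against control (−0.61, limma adjusted p = 0.0331). Epor, the erythropoietin receptor, was at 12.3 FPKM in control mouse 042301 and at 1.42 to 4.13 in the other 11 mice. Of the 2 tested transcription factors, Lyl1 rose in CKD (1.66), and Lyl1 (1.93) and Lmo2 (1.02) rose in CKD+Fe against control. The Lmo2 call was lost under rescaling (0.44, limma adjusted p = 0.24) and quantile normalization (0.60, adjusted p = 0.13).

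Heme synthesis other than Alas2 is a pathway of every cell, and most of its genes fell with adenine. Of 10 tested genes, 6 fell and 1 rose in CKD against control, with a median of −0.53. Of all 13148 tested genes, 1748 fell and 7181 rose in that comparison, and 1442 fell and 7159 rose in CKD+Fe against control. Cpox fell by 1.30 and Uros by 0.97 on the log2 scale, and Alas1, the housekeeping counterpart of Alas2, fell by 0.77 (limma adjusted p = 0.0116). Ppox rose by 0.54, but its sign turned (−0.05) under median-of-ratios rescaling. In CKD+Fe against control 5 fell and 2 rose, Cpox by −1.02 and Ppox by 0.93. Under rescaling, where 4091 (CKD) and 3865 (CKD+Fe) of 13043 genes fell, 8 of the 10 fell and none rose in either comparison. These levels were far above that of Alas2: the mean of Alas1 was 136 FPKM in control mice, 78.4 in those given adenine and 81.1 in those also given iron.

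The summed neutrophil and platelet markers did not overlap between control and adenine-fed mice. Such separation was common: 55.1% of all tested genes had non-overlapping CKD and control groups, and 60.2% non-overlapping CKD+Fe and control groups. Of 13148 tested genes, 7181 were called higher in CKD against control and 7159 in CKD+Fe against control. All 7 tested neutrophil genes rose in CKD and all 7 in CKD+Fe against control, led by S100a8 (4.34 and 3.96) and S100a9 (4.16 and 3.96). Ltf lost its call under rescaling and quantile normalization, and turned under the latter in CKD+Fe mice. In CKD+Fe against control, Retnlg (0.61, limma adjusted p = 0.111) and Cxcr2 (0.38, adjusted p = 0.16) also lost theirs under quantile normalization. Cxcr2 was not tested under rescaling. Ngp, Camp, Elane and Mpo did not pass the filter and stayed at or below 0.31 FPKM. The summed neutrophil list was 2.11 to 7.87 FPKM in control mice, 62.9 to 245 with adenine and 53.4 to 154 with adenine and iron. Of 4 tested platelet genes 3 rose in both, led by Pf4 (2.87 and 3.30) and Ppbp (1.49 and 1.01), and the third, Gp1bb, turned under quantile normalization in CKD. Ppbp in CKD+Fe lost its call there (0.36, limma adjusted p = 0.114). Itga2b, the fourth, gave −0.55 in CKD and was called lower under rescaling (−1.09, adjusted p = 0.00198) and quantile normalization (−1.23, adjusted p = 0.0012). The platelet sum was 7.83 to 19.4, 23.0 to 55.2 and 33.7 to 67.9 FPKM, while Gp1ba and Gp6 stayed at or below 0.0615 FPKM. The mouse with the highest S100a8 (022301, 109 FPKM) had high Hbb-bs, but the second highest (120102, 69.5) had an Hbb-bs of only 6.44. Whether the blood content of the samples sets the globin levels was not tested.

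**Figure D5:**
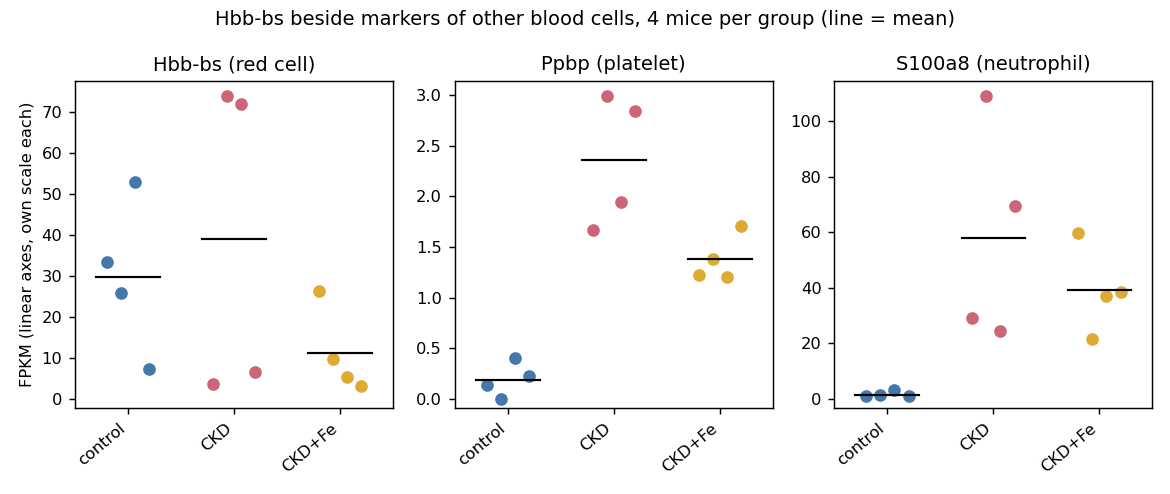
FPKM of Hbb-bs, Ppbp and S100a8 in each mouse by group, each on its own linear axis, with a line at the mean. Ppbp and S100a8 are separate between control mice and both adenine groups, whereas Hbb-bs overlaps in all groups. Of all tested genes, 55.1% were separate between CKD and control mice and 60.2% between CKD+Fe and control mice.

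Genes that clear hemoglobin and heme were also measured. Of 10 tested, 5 were higher and 3 lower in CKD, and 6 higher and 2 lower in CKD+Fe, against control. Hp (haptoglobin, which binds free hemoglobin) rose by 3.91 and 3.72, Lrp1, a receptor for the hemopexin complex, by 1.89 and 2.01, and Cd163, the macrophage receptor for haptoglobin and hemoglobin, by 1.71 and 1.38. Hmox1, which degrades heme, gave −0.29 and 0.08 (limma adjusted p = 0.439 and 0.846), and was called lower in CKD under rescaling (−0.90, adjusted p = 0.0358). Hpx passed in both, and turned under quantile normalization in CKD. Of 12 endothelial genes, a gauge of the vessels that hold blood, Kdr alone passed in CKD (−0.67), where Plvap gave −0.68 without passing, and none passed in CKD+Fe, where Egfl7 (0.63) and Cldn5 (0.62) differed most, although 8 were lower in each under median-of-ratios rescaling. Of 10 kidney epithelial genes, which check the tissue, 5 fell in CKD, led by the proximal tubule genes Kap (−4.84) and Slc34a1 (−2.54). In CKD+Fe against CKD no gene of any of these lists passed. The largest differences there were those of Slc4a1 (1.15), Blvrb (0.64), Isg20 (−0.53) and Slc40a1 (0.53), with limma adjusted p of 0.462, 0.828, 0.824 and 0.859.

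The genes most like the members were not erythroid markers. Over 12 mice, the genes with the highest Pearson r to the mean standardized level of the members, among 13128 compared, were Lipt2 (0.913), Gemin7 (0.906), Ftsj1 (0.886), F8a (0.886) and Ptk2b (0.878), followed by Mydgf, Plxdc2, Fam3a, Denr and Psmb4 (0.859). On deviations from the group means they were Utp3 (0.979), Commd4 (0.966), Plekhj1 (0.961), Ecscr (0.960), Gmppa (0.960), Alkbh2 (0.959), Tomm34 (0.956), Eva1b (0.956) and Pold1 (0.955), with 1 further gene of the 10 not reported here. No gene was on both lists of 10. Within groups 7.92% of the genes compared had r of at least 0.8 with the members and 4.40% had r of −0.8 or below.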

How the data were processed

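Whole-kidney RNA (TruSeq stranded mRNA kit, single-end reads of 50 bases) was sequenced from 12 mice. Per the submitters' processing notes, bcl2fastq 2.19, STAR 2.5.2 and Cufflinks 2.1.1 were used with GRCm38. The authors deposited FPKM per gene, which carry no counts, so no count model was run. The table held 22053 rows for 22007 identifiers, and 30 values in 17 genes whose status was marked as failed were set to missing. FPKM share one total per library, so a gene family that takes a large share lowers all others.

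Values were taken as log2(FPKM + 1) and fitted with limma 3.58.1 (R 4.3.3, empirical Bayes with a variance trend) on the 3 groups together, after keeping genes at 1 FPKM or more in at least 4 mice. Benjamini-Hochberg adjusted p under 0.05 was called. The script was tested on simulated data. Single genes were tested by an exact two-sided permutation test of 4 mice against 4, and correlations by 100000 permutations, within groups for deviations from group means. Nothing in the labels says more of the mice than that they are separate animals. Depth was estimated from the steps between low FPKM values, over a range chosen after seeing them, and is approximate. Intervals cover the spread between mice.

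Alternatives were a pseudocount of 0.1, no filter, keeping genes averaging 5 FPKM or more, rescaling by median of ratios before filtering, quantile normalization, array quality weights, no variance trend, 2 groups only, summed copies, and leaving out each mouse or the 3 mice far from their groups. Hbb-bs as a covariate and correlations without the 3 far mice were added after seeing the data. The members and the gene lists were chosen with earlier results of these data known. Every member was named in every mouse. For each other list the rule took counts, the 2 members with the largest change in each comparison, and any past the threshold in CKD+Fe against CKD, and the text gives those of chief interest. Some others (Alas1, Tfrc, Epor, Itga2b, Hmox1, Cd163, Gp1bb, Ltf, Retnlg, Cxcr2, Hpx and genes near 0) were named after their values were seen. Some genes of the lists are not reported here. Likeness was Pearson r with the mean standardized level of the 5 members. The group of each mouse came from its label, and the labels share no replicate numbers between groups. The most alike libraries (012811 and 012822) correlated at 0.9928. Sequences and positions came from GENCODE M21 and from RefSeq promoter tables, in which all 5 members matched.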

Additional observations from a re-analysis of the deposited data

Results flagged for a closer look

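One value lay far from its group on untransformed FPKM, not on the log2 scale used for the other tests. Hba-a1 in CKD+Fe mouse 042702 was 12.4 FPKM, against 1.54 to 2.84 in the other 3 CKD+Fe mice, a gap to the nearest mouse of more than 0.829 of the group's range (Dixon's 95% critical value for 4 samples). In all, 15 sets of 4 mice were looked at, and chance flags about 1 in 20. The same mouse had the highest Hbb-bs (26.2 FPKM), Hba-a2 (3.12), Hbb-bt (0.861) and Alas2 (0.693) of its group, and 442 genes at least 2-fold from the rest of its group.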

How the results depend on the processing

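No member was called in CKD against control or in CKD+Fe against CKD under any alternative run. The median of the 4 tested members in CKD against control went from −0.41 to −0.90 under median-of-ratios rescaling and −1.03 under quantile normalization. In CKD+Fe against CKD it went from −0.98 to −0.95 and −1.03, and in CKD+Fe against control from −1.39 to −1.78 and −1.96. For CKD+Fe against control the count of 1 called member became 0 with a pseudocount of 0.1, without the filter, with the filter at a mean of 5 FPKM (2 members tested), without the variance trend, with summed copies and without the 3 far mice (3 tested). With only the 2 groups compared the count stayed at 1 (3 tested), but the gene called was Hba-a2 (−1.43, limma adjusted p = 0.0375). Hbb-bt was not tested in that fit. The count became 2 under median-of-ratios rescaling and under quantile normalization, and 4 with array quality weights. It was 0 to 1 when single mice were left out, 0 in 7 of the 12 fits. Where tested, Hbb-bt stayed lower in CKD+Fe than in control mice, by −1.08 to −2.45, with limma adjusted p of 0.00652 to 0.152. In CKD against control single mice turned the sign. Their log2 fold changes ran from −1.09 to 0.10 for Hba-a1, −1.04 to 0.05 for Hba-a2, −0.90 to 0.44 for Hbb-bs, −0.76 to 0.19 for Hbb-bt and −0.38 to 0.03 for Alas2. Of 289 values under alternatives, 263 kept direction and side of the threshold, 6 passed it, 11 no longer did and 9 turned. The causes were not tested. Quantile normalization, array weights and other refits were not run for Alas2, which entered no filtered fit.

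Median-of-ratios rescaling moved the median of all tested genes from 0.50 to −0.04 in CKD against control and from 0.50 to −0.03 in CKD+Fe against control. It changed the split of calls from 7181 higher and 1748 lower to 3490 and 4091, and from 7159 and 1442 to 3341 and 3865. No paired analysis was possible because the groups share no replicate numbers.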

Other observations

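Genes that moved with the members inside groups differed in transcript length and base composition from the rest. The 1040 genes with r of at least 0.8 on deviations from group means had a median transcript length of 1864 bases and 55.3% GC. The 578 genes with r of −0.8 or below had 5029 bases and 44.4% GC, where all genes compared had 3242 bases and 49.9% GC. Hba-a1, Hba-a2, Hbb-bs and Hbb-bt transcripts are 699, 554, 628 and 703 bases long, and that of Alas2 is 2037. The part of length, GC content or RNA quality in the members' spread was not tested.

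Hbb-bs as a covariate, added after seeing the data, raised the genes called in CKD against control from 8929 to 9540 and in CKD+Fe against control from 8601 to 8899. In CKD+Fe against CKD the count went from 1 to 0 by limma, while genes at an unadjusted p under 0.05 went from 790 to 1478. Without the 3 far mice, CKD+Fe against CKD gave 83 genes, 51 higher and 32 lower, and none was a member.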
